A study of Mus musculus with 4 samples.

Results

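The genes described here are 10 transcripts tied to feedback on the ERK kinase route, namely the Sprouty genes Spry1, Spry2 and Spry4, the Spred genes Spred1 and Spred2, the dual-specificity phosphatase genes Dusp1, Dusp4 and Dusp6, and the ETS transcription factor genes Etv4 and Etv5. They were chosen by gene symbol, and each matched 1 of the 19353 genes in the count table. Growth factor receptors such as those for FGF, HGF and EGF pass their signal through Ras, Raf and MEK to ERK, which turns on transcription of its own inhibitors. Sprouty and Spred proteins act upstream, between receptor and Raf, whereas Dusp proteins remove phosphate from ERK or related kinases, and transcripts of Dusp6, Spry4, Etv4 and Etv5 are widely used as readouts of ERK activity. In muscle stem cells (MuSCs), Spry1 is known as a brake on FGF signaling that is linked to quiescence.

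MuSCs came from the plantaris muscle of Pax7CreERT2+::RosaYFP mice, in which tamoxifen-activated Cre under the control of Pax7 switches on yellow fluorescent protein (YFP). All groups shared these alleles and the tamoxifen, and 2 libraries from sham-operated muscle (skin incision alone) were compared with 2 from overloaded muscle, collected 4 days after the tendons of the gastrocnemius and soleus were cut. Each library was made by CEL-Seq2 from a tube of 100 YFP-sorted cells, with copies of 1 molecule merged by their unique molecular identifier (UMI). Depth was 269683 and 260488 UMIs in sham and 387955 and 483528 after overload. Age and sex were not given in the sources used here, nor whether tubes of a group came from different mice, so that p-values measure the spread between tubes, which may be technical. In other experiments of the study the sham muscle was that of the opposite leg, and whether a sham and an overloaded tube came from the legs of 1 mouse is not stated for these libraries. Because each tube was a pool, fewer cells with a transcript and less of it per cell cannot be told apart.

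Transcripts that mark MuSCs were present in every library. Pax7, which defines these cells, was at 118 and 107 UMIs in sham, 108 and 137 after overload, and fell relative to the other transcripts (log2 fold change -0.84, edgeR adjusted p = 6.4e-04 in the test described below), though not per tube or under the offsets for abundance. The myogenic factor Myod1 was at 83 and 87 against 176 and 229 UMIs, and did not pass (log2 fold change 0.29, edgeR adjusted p = 0.17). It did pass as higher per tube (1.25, edgeR adjusted p = 9.2e-05) and under the offsets for abundance (0.97, adjusted p = 3.5e-05). The same held with library sizes alone (0.57, edgeR adjusted p = 0.0067) and with upper-quartile scaling factors (0.38, adjusted p = 0.072). Of the 10 MuSC genes listed, 2 rose, 5 fell and 3 did not pass, where 25.8% of all tested genes rose and 26.3% fell. The largest falls among them were those of Calcr (37 and 57 against 15 and 15 UMIs, log2 fold change -2.60) and Chrdl2 (114 and 126 against 36 and 45 UMIs, -2.53), and the most abundant was Sdc4 (422 and 284 against 375 and 345 UMIs, -0.91). Of 10 cell cycle genes 9 rose, each with 8 or fewer UMIs in either sham library, so that they were tested only through their counts after overload. The most abundant was Top2a, at 2 and 6 against 124 and 176 UMIs. The proliferation gene Mki67 gave 0 and 2 UMIs in sham, 70 and 53 after overload, a ratio of 31.5 (95% exact binomial interval 8.55 to 263, counting error only). Genes listed as markers of other cell types are given as raw UMIs. Since the overloaded libraries were deeper, their sums are also scaled to CPM by library size and the TMM factors of the tests below. Where scaling by the library total alone changes whether the groups overlap, both are given. The 12 leukocyte markers summed to 2 and 7 UMIs in sham and to 78 and 212 after overload, or 8.71 and 31.7 against 203 and 429 CPM. Lyz2 was the most abundant of them (0 and 0 against 17 and 38 UMIs), and the pan-leukocyte gene Ptprc stood at 0 and 1 against 1 and 4. The 9 myofibre markers in the table summed to 433 and 221 UMIs against 1332 and 1570, or 1885 and 1001 against 3463 and 3179 CPM, and all 7 that were tested rose, Myh4 (10 and 5 against 145 and 79 UMIs) having enough counts only after overload. Acta1 was the most abundant (120 and 66 against 299 and 342 UMIs). Markers of fibro-adipogenic cells summed to 1317 and 1192 UMIs against 1870 and 2140. Their sums were lower after overload with TMM, 5733 and 5400 against 4862 and 4334 CPM, but overlapped by library total alone, at 4884 and 4576 against 4820 and 4426. Of the 7 tested, 4 fell (26.3% of all genes), among them the most abundant, Col3a1 (508 and 461 against 618 and 683 UMIs, log2 fold change -0.53), and 2 rose. Those that rose were Ly6a, which encodes Sca1, at 1 and 0 against 22 and 41 UMIs and so tested only through the overloaded libraries, and the collagen gene Col1a2, at 74 and 55 against 426 and 465 (log2 fold change 1.84, edgeR adjusted p = 1.0e-06), while Pdgfra was at 0 and 0 against 2 and 0. Mural markers summed to 369 and 323 UMIs against 616 and 871. These sums overlapped with TMM, at 1606 and 1463 against 1602 and 1764 CPM, and were higher after overload by library total alone, at 1368 and 1240 against 1588 and 1801. Of the 5 mural genes tested, Acta2, the most abundant (115 and 109 against 356 and 493 UMIs), and Rgs5 rose, and Notch3 and Tagln fell, with Myh11 at 0 in sham. Rgs5, at 13 and 4 against 38 and 86 UMIs, had enough counts only after overload. Endothelial markers summed to 30 and 20 UMIs against 54 and 73, or 131 and 90.6 against 140 and 148 CPM, with Tek the most abundant (10 and 12 against 5 and 11 UMIs). Whether these transcripts came from other cells or from the MuSCs themselves was not tested, nor was the part of other cells in the results below.

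Relative to the other transcripts of their libraries, Sprouty transcripts, Spred1 and Dusp1 were lower in overloaded MuSCs, whereas Dusp6 was higher. Counts were scaled to CPM by TMM factors and library size and tested by the quasi-likelihood test of edgeR over the 7228 genes with enough counts, at the study's threshold of an adjusted p of 0.1. Of the 10 genes, 8 had enough counts, and 5 of these fell, 1 rose and 2 did not pass the threshold, while Dusp4 and Etv4 were too scarce to be tested. Many other genes changed as well, since 52.1% of all tested genes passed the threshold, 26.3% lower and 25.8% higher. The median log2 fold change (log2FC, given below with its standard error, SE, or confidence interval, CI) was -0.68 over the 8 genes and 0.051 over all tested genes. Fold changes varied with abundance, as given below, and the median of all genes is not matched to the level of the 8 genes. For 6 of the 8, normalized levels of the groups did not overlap, 5 lower and 1 higher, as was so for 72.9% of all tested genes, 35.4% lower and 37.5% higher. Their UMIs per tube did not overlap for 5 of the 8, against 80.6% of all tested genes. With each library left out in turn, 4 to 5 of the genes were lower (18.3% to 23.2% of all genes) and 0 to 1 higher (17.4% to 22.5%) past the threshold.

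**Figure D1:**
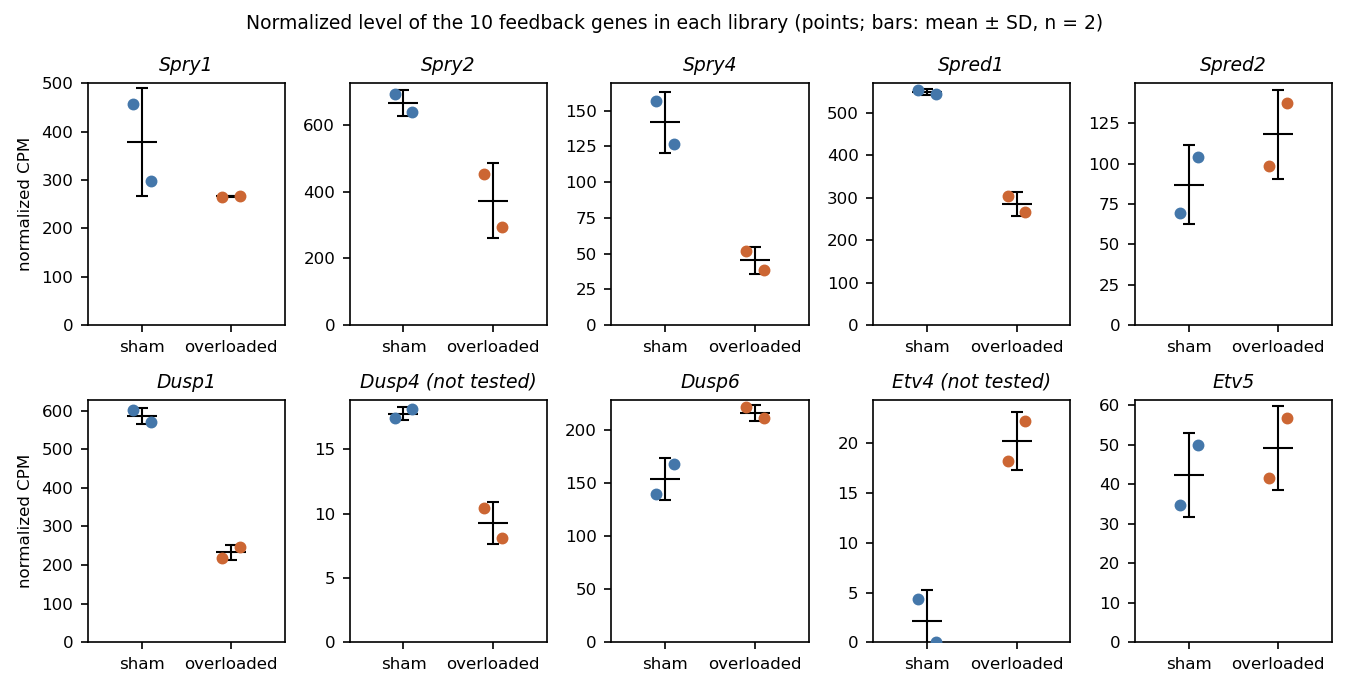
Normalized CPM (linear axes from 0) of each of the 10 genes in the 2 sham and 2 overloaded libraries, with points for libraries and bars for mean ± SD; the lower SD bar of Etv4 in sham is cut at 0. Spry1, Spry2, Spry4, Spred1 and Dusp1 lie lower in both overloaded libraries, Dusp6 lies higher, and the points of Spred2 and Etv5 overlap between the groups.

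The overloaded libraries held more UMIs, and the scale changed several of these calls. Without scaling, in UMIs per tube of 100 cells, the median log2FC of all tested genes was 1.01, and 66.6% of genes passed the threshold, 62.0% higher and 4.58% lower. On this scale 3 of the 8 genes rose, Dusp6, Spred2 and Etv5, and 0 fell. Fold changes also varied with abundance, with a median log2FC of 0.33 among genes at up to 100 CPM. It was -0.47 among the 917 genes at 200 to 400 CPM and -0.88 among the 432 genes above 400 CPM. Where offsets fitted to each library took out that slope, 42.3% of all tested genes passed the threshold, 20.7% higher and 21.6% lower. Under these offsets 3 of the 8 genes passed, with Spry4 and Dusp1 lower and Dusp6 higher. The median log2FC of the 8 genes was then -0.047, against 0.015 over all tested genes.

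Other settings moved the number of genes called among the 10 less. DESeq2 called 4 lower and 0 higher (11.7% and 9.34% of all genes), and edgeR with library sizes alone 4 lower and 2 higher (18.7% and 37.3%). With no filter on low counts 5 were lower and 2 higher (9.32% and 12.7%). The 5 genes that fell passed, and 0 rose, with at least 10 counts required in every library of a group (26.0% lower and 25.2% higher), at an adjusted p of 0.05 (22.7% and 21.4%) and with thinned counts (25.0% and 25.1%). Dusp6 was the gene that dropped out in these 3 settings. With the replicate number as a block, 5 were lower and 1 higher (25.8% and 25.0%).

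**Figure D2:**
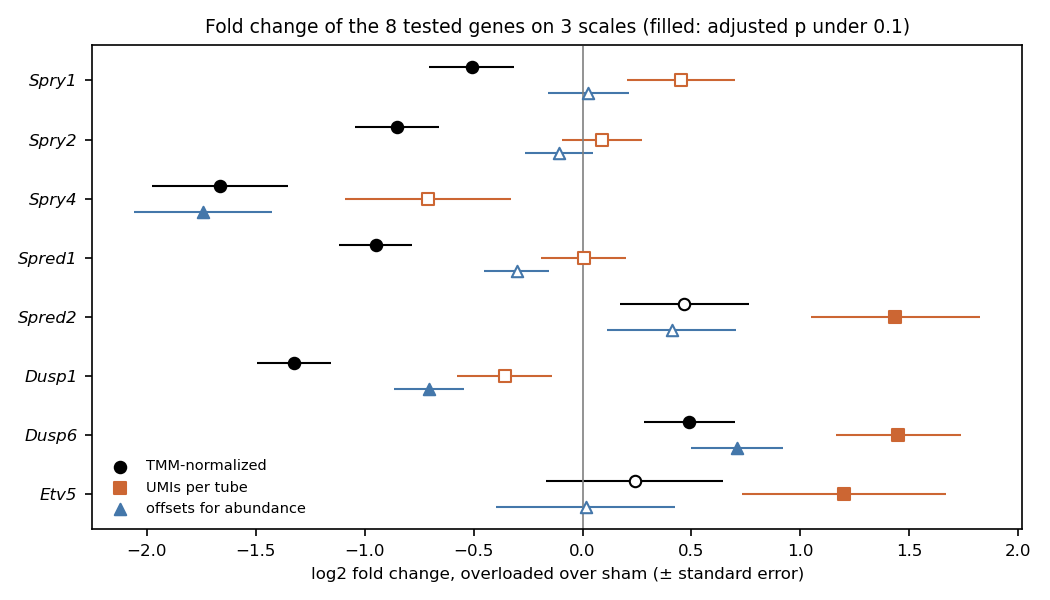
Log2 fold change of overloaded over sham MuSCs (± SE) for the 8 tested genes on 3 scales, TMM-normalized (circles), UMIs per tube (squares) and with offsets for abundance (triangles), filled where the adjusted p is under 0.1. Dusp6 lies right of 0 on every scale and Spry4 and Dusp1 lie left of 0 on every scale, whereas Spry1, Spry2 and Spred1 lie left of 0 only with TMM or, for Spry2 and Spred1, also slightly left with the offsets.

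Among the Sprouty genes, which encode membrane-associated inhibitors of receptor tyrosine kinase signaling, Spry4 differed most between the groups. Spry4 (ENSMUSG00000024427, minus strand of chromosome 18 of GRCm38, 38586247 to 38601415, 2 exons in its longest transcript) gave 36 and 28 UMIs in sham, 20 and 19 after overload. Both overloaded libraries were below both sham libraries in UMIs as well as in CPM, although they were the deeper ones. Its level fell from 142 ± 21.1 to 45.2 ± 9.56 CPM (SD, n = 2 each), a log2FC of -1.66 (SE 0.31, 95% CI -2.32 to -1.01, edgeR adjusted p = 4.2e-04). It stayed past the threshold with each library left out, at log2FC values of -1.85 to -1.40, and under the offsets for abundance (-1.74, adjusted p = 1.6e-04). In UMIs per tube its log2FC was -0.71, not past the threshold (edgeR adjusted p = 0.12). Spry4 overlaps Gm27369 and Gm27804 on the other strand, neither with an entry in the count table.

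Spry2 (ENSMUSG00000022114, chromosome 14, 105891947 to 105896819, minus strand) gave 159 and 141 UMIs in sham, 174 and 145 after overload. The UMIs per tube thus overlapped, and the groups separated only after scaling, at 692 and 639 CPM in sham and 452 and 294 CPM after overload. Spry2 fell by this measure, with a log2FC of -0.85 (SE 0.19, edgeR adjusted p = 0.0018). Its level after overload was 373 ± 112 CPM (SD, n = 2), and without overloaded replicate 2 the log2FC was -0.51 (edgeR adjusted p = 0.0032). With the offsets for abundance it was -0.11 (adjusted p = 0.63) and per tube 0.089 (adjusted p = 0.69), neither past the threshold of edgeR's test.

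Spry1 (ENSMUSG00000037211, chromosome 3, 37639947 to 37644598, plus strand) gave 105 and 66 UMIs in sham, 102 and 132 after overload. Sham replicate 1, at 457 CPM, stood far above sham replicate 2 at 299 CPM, and the overloaded libraries were close together at 265 and 267 CPM. The fall of Spry1, a log2FC of -0.51 (SE 0.20, edgeR adjusted p = 0.043), rested on sham replicate 1. Without that library it was -0.20 (adjusted p = 0.60), and without sham replicate 2 it was -0.82 (edgeR adjusted p = 0.0089). Spry1 was not past the threshold by DESeq2 (adjusted p = 0.22), with library sizes alone (adjusted p = 0.32), under the offsets (log2FC 0.027) or per tube, where its log2FC was 0.45 (edgeR adjusted p = 0.12). Spry1 overlaps a transcript on the other strand, Gm42922, and the strand setting of the counting is not given in the sources used here.

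The Spred genes encode Sprouty-related proteins with an EVH1 domain that recruit neurofibromin to shut off Ras. Spred1 (ENSMUSG00000027351, chromosome 2, 117121374 to 117182279, plus strand) gave 127 and 120 UMIs in sham, 117 and 131 after overload, nearly the same number per tube in both groups. At 548 ± 6.51 CPM in sham and 285 ± 27.5 CPM after overload (SD, n = 2 each), Spred1 fell relative to the other transcripts by 0.95 on the log2 scale (SE 0.17, edgeR adjusted p = 2.3e-04). The call held with each library left out (-1.02 to -0.81). Per tube the log2FC was 0.0058 (edgeR adjusted p = 0.98), and under the offsets it was -0.30 (adjusted p = 0.13), both short of the threshold.

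Spred2 (ENSMUSG00000045671, chromosome 11, 19924375 to 20024026, plus strand) gave 16 and 23 UMIs in sham, 38 and 68 after overload. Its levels were 69.6 and 104 CPM in sham and 98.8 and 138 CPM after overload, so that the groups overlapped. The log2FC was 0.47 (95% CI -0.15 to 1.09, edgeR adjusted p = 0.21), and it ranged from 0.17 without sham replicate 1 to 0.74 without sham replicate 2, not past the threshold in either. Per tube Spred2 rose, with a log2FC of 1.44 (adjusted p = 0.0047), and it was also past the threshold with library sizes alone (0.75, edgeR adjusted p = 0.044). The difference between the fold changes of Spred1 and Spred2 was not tested.

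Among the phosphatase genes, Dusp1 and Dusp6 moved in opposite directions. Dusp1 encodes a nuclear phosphatase of ERK, p38 and JNK and is itself an immediate early gene. It gave 138 and 126 UMIs in sham, 84 and 122 after overload, both overloaded libraries being below both sham libraries even in UMIs per tube. Scaled to CPM, Dusp1 stood at 601 and 571 in sham and at 218 and 247 after overload. This fall, a log2FC of -1.32 (SE 0.17, 95% CI -1.68 to -0.97, edgeR adjusted p = 1.1e-05), had the lowest adjusted p of the 8 genes. It remained past the threshold with each library left out (-1.40 to -1.22) and under the offsets (-0.70, adjusted p = 0.0014), but not per tube (-0.36, edgeR adjusted p = 0.16).

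Dusp1 (ENSMUSG00000024190) is annotated at 26505590 to 26562128 of chromosome 17, minus strand, a span that overlaps Ergic1 on the plus strand. Ergic1 went the other way, at 17 and 16 UMIs in sham against 49 and 58 after overload. The pseudogene Gm8225 within the span had 8 and 14 UMIs in sham and 1 and 2 after overload. If the counting did not use strand, reads of such plus-strand neighbours could not be told apart where exons overlap. The pseudogene AC122252.4 and the intronic transcript AC122252.1 lie in the span on the same strand as Dusp1, where strand would not separate them. Neither has an entry in the count table.

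Dusp6 encodes a cytoplasmic phosphatase with a strong preference for ERK. Dusp6 (ENSMUSG00000019960, chromosome 10, 99263231 to 99267489, plus strand, 3 exons) gave 32 and 37 UMIs in sham, 85 and 104 after overload. Its levels of 139 and 168 CPM in sham and 221 and 211 CPM after overload did not overlap. Dusp6 rose by a log2FC of 0.49 (SE 0.21, 95% CI 0.051 to 0.93, edgeR adjusted p = 0.066). Larger log2FC values were found per tube (1.45, adjusted p = 5.0e-04) and with the offsets (0.71, adjusted p = 0.011), and it kept its direction in every alternative tried. The normalized call was close to the threshold, however, and was lost without sham replicate 1 (0.33, adjusted p = 0.42), without sham replicate 2 (0.59, adjusted p = 0.14), without overloaded replicate 1 (0.48, adjusted p = 0.13), with counts thinned to the smallest library (adjusted p = 0.20) and by DESeq2 (adjusted p = 0.33).

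Dusp4, which encodes a further nuclear phosphatase, was counted 4 times in each of the 4 libraries. The ratio of overloaded over sham after scaling was 0.513 (95% exact binomial interval 0.168 to 1.57, counting error only), and no difference was detectable at this depth.

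The ETS factors Etv4 and Etv5 belong to the PEA3 group, which ERK signaling induces and activates. Etv4 (ENSMUSG00000017724, chromosome 11, 101769742 to 101785371, minus strand) was nearly absent in sham, with 1 and 0 UMIs, and was counted 7 and 11 times after overload. The ratio of summed counts after scaling was 9.23 (95% exact binomial interval 1.46 to 385, counting error only). Etv4 was too scarce for the filter. With no filter it was past the threshold (log2FC 3.08, edgeR adjusted p = 0.017), but DESeq2 did not call it (adjusted p = 0.24). Etv5 (ENSMUSG00000013089, chromosome 16, 22381309 to 22439719, minus strand) gave 8 and 11 UMIs in sham, 16 and 28 after overload. By CPM of the library total, which the filter uses, it reached the filter in both libraries of a group only after overload. Its levels of 34.8 and 49.8 CPM against 41.6 and 56.7 CPM overlapped between the groups, and the log2FC of 0.24 had a 95% CI of -0.62 to 1.10 (edgeR adjusted p = 0.66). Without sham replicate 1 it was -0.033. Per tube Etv5 rose by a log2FC of 1.20 (edgeR adjusted p = 0.035).

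**Figure D3:**
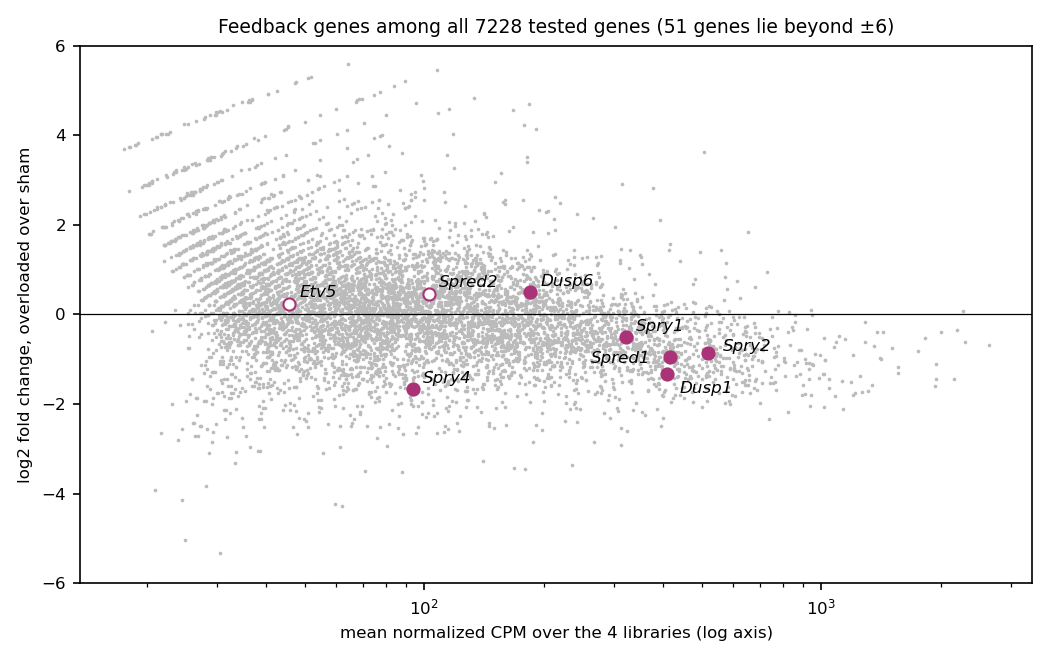
Log2 fold change of overloaded over sham MuSCs against the mean normalized CPM (log axis) for the 7228 tested genes (grey) and the 8 tested feedback genes (filled where past the threshold). The cloud bends below 0 at high CPM, where Spry1, Spry2, Spred1 and Dusp1 lie; Spry4 lies toward the lower side of the cloud at a mean near that of Spred2.

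The promoters of 3 genes whose transcripts changed in normalized values are printed, Dusp1 and Spry2 having fallen and Dusp6 having risen. Windows of 250 bases before to 50 bases after the start site from RefSeq (GRCm38.p6) were matched for 7 of the 10 genes, and Spry4, Dusp4 and Etv4 had no entry. They were searched on both strands for the cyclic AMP response element TGACGTCA, the AP-1 site TGANTCA, the ETS core CCGGAA and the CArG box bound by serum response factor. Capitals mark matches. The Dusp1 window lies at chr17:26508423-26508722 (minus strand), the Spry2 window at chr14:105896770-105897069 (minus strand) and the Dusp6 window at chr10:99262981-99263280 (plus strand).
Dusp1: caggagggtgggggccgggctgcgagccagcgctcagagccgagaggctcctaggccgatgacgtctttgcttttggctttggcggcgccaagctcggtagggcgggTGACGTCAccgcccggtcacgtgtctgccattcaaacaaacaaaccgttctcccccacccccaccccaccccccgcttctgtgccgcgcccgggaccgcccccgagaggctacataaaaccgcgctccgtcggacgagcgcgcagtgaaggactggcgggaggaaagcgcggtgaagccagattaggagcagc
Spry2: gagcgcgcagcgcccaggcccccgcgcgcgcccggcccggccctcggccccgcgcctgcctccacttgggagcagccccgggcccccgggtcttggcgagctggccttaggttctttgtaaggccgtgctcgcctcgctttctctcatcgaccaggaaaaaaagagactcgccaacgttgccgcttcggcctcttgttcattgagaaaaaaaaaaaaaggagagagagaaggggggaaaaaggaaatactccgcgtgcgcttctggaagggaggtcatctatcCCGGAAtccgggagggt
Dusp6: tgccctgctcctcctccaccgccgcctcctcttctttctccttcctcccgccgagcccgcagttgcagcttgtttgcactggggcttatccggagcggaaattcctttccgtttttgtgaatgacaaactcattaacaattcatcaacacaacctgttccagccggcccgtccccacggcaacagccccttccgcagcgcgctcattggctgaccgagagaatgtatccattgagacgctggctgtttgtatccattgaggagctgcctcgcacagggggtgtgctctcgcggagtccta
The Dusp1 window held 1 cyclic AMP response element, from -143 to -136 relative to the start site. The Spry2 window held 1 ETS core 33 to 38 bases after the start site, and the Dusp6 window held none of the motifs. Across all 32851 windows of this length, the response element was found in 1.79%, the ETS core in 14.9%, the AP-1 site in 7.81% and the CArG box in 1.63%. Of the 7 genes with windows, 1 held the response element and 1 the ETS core. The windows of Spry1, Spred1, Spred2 and Etv5 held no match. Spry1 and Spred1 had fallen as well, so the printed genes that fell are those with a match and do not stand for all that fell. A match is a description of letters in the window, and these data do not bear on binding there.

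Other members of the families gave a mixed picture. Of 16 further Dusp, Spry, Spred and Etv genes, 8 were tested, 3 rose, 2 fell and 3 did not pass the threshold, with a median log2FC of 0.062, where 25.8% of all genes rose and 26.3% fell. Dusp8 and Dusp16, which encode phosphatases that prefer JNK and p38, fell by log2FC values of -1.98 (SE 0.23, edgeR adjusted p = 3.7e-06) and -1.26 (adjusted p = 3.2e-04), and Dusp16 did not pass the threshold per tube (-0.30, adjusted p = 0.45). Dusp8 had 89 and 76 UMIs in sham and 26 and 56 after overload. Dusp10, of the same kinase preference, was at 48 and 32 against 77 and 116 UMIs and was not past the threshold (log2FC 0.30, edgeR adjusted p = 0.27). Dusp3, which encodes a small phosphatase, rose by 0.76 (adjusted p = 0.024), but not without overloaded replicate 1 (0.42, edgeR adjusted p = 0.25) or by DESeq2 (adjusted p = 0.13), and without that library 3 rather than 5 genes of this list passed. Dusp22, at 3 and 7 UMIs in sham against 18 and 40, and the PEA3 gene Etv1, at 1 and 6 against 14 and 22, were the other genes that rose. Both were tested only through their counts after overload, so the number that rose in this list is not read against the share of all genes. By DESeq2 the list held 2 calls, those of Dusp8 and Dusp16, so neither Dusp22 nor Etv1 passed.

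Of 20 other genes listed as inhibitors along the route, 16 were tested. Past the threshold, 5 fell and 0 rose (3 rather than 5 passed by DESeq2), with a median log2FC of -0.24. Of all genes 26.3% fell with edgeR, near the share of this list, and 11.7% with DESeq2. Errfi1, an inhibitor of the EGF receptor that its own signal induces, gave 364 and 374 UMIs in sham, 177 and 162 after overload. Its level fell from 1639 ± 77.6 to 394 ± 93.4 CPM (SD, n = 2 each), a log2FC of -2.07 (SE 0.18, edgeR adjusted p = 3.0e-07). Erf, an ETS repressor that ERK inactivates, fell by a log2FC of -1.76 (adjusted p = 2.8e-05), and Spsb1, an adaptor of a ubiquitin ligase, by -1.81 (edgeR adjusted p = 6.2e-07). Spsb1 was placed in this list by an assumed role, and whether it inhibits the route was not tested. The Ras GTPase-activating genes Nf1 and Rasa1, at log2FC values of -0.091 and 0.22, did not pass, whereas Rasa2 fell (-0.77, edgeR adjusted p = 0.029). Rasa2 did not pass by DESeq2, where the 3 called genes of this list were Errfi1, Erf and Spsb1. Per tube, 11 of the 16 passed the threshold in either direction, about the 66.6% of all genes (62.0% higher and 4.58% lower). Errfi1 (-1.12), Spsb1 (-0.85) and Erf (-0.80) were among the 11 and lower (edgeR adjusted p = 2.1e-05, 0.0034 and 0.021). The directions of the rest are not given here.

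Among 22 receptors and adaptors, 15 were tested, and 6 fell and 1 rose, with a median log2FC of -0.63. The 6 that fell were 40.0% of those tested, against 26.3% of all genes, and the 1 that rose was 6.67%, against 25.8%. Fgfr1 gave 242 and 232 UMIs in sham, 155 and 160 after overload, a log2FC of -1.54 (SE 0.17, edgeR adjusted p = 1.9e-06). Egfr fell by -1.04 (adjusted p = 0.0012) and Igf1r by -0.94 (adjusted p = 2.2e-04), and neither passed the threshold per tube, where their log2FC values were -0.086 and 0.022. Igf1r also missed it under the offsets for abundance (-0.27, edgeR adjusted p = 0.17). The HGF receptor gene Met, at 21 and 28 UMIs in sham against 73 and 124 after overload, rose by 1.03 (SE 0.25, edgeR adjusted p = 0.0027).

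In the cascade from Ras to the kinases below ERK, 19 of 27 genes were tested, 4 rose and 5 fell, and the median log2FC was -0.11. Of all genes 25.8% rose and 26.3% fell, but Elk3, which rose (8 and 2 against 18 and 23 UMIs), was tested only through the overloaded libraries and Rps6ka5, which fell, only through sham, so the shares are not compared. Hras gave 12 and 12 UMIs in sham, 73 and 82 after overload, a log2FC of 1.73 (SE 0.28, edgeR adjusted p = 1.1e-04). Nras rose by 0.59 (adjusted p = 0.022), though not without sham replicate 1 (0.36, adjusted p = 0.36) or by DESeq2 (adjusted p = 0.17), and Map2k1, which encodes MEK1, by 0.53 (adjusted p = 0.069), a call lost by DESeq2 (adjusted p = 0.34) and without any of sham replicate 1, sham replicate 2 and overloaded replicate 2 (adjusted p = 0.26, 0.21 and 0.36 from edgeR). Braf (-1.29), Mknk2 (-1.31) and Rps6ka3 (-1.04), kinases above and below ERK, fell (adjusted p = 9.8e-04, 3.3e-05 and 2.9e-04 from edgeR), and none of these 3 was past the threshold per tube.

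Most other genes that are commonly read as ERK targets were lower after overload. Of 20 such genes 19 were tested, and 16 fell and 2 rose, with a median log2FC of -1.34. Those that fell were 84.2% of the tested targets, and 26.3% of all genes fell. These shares are given as a description only, since the list was chosen with earlier results of these data known. The targets that fell include Lif (18 and 22 against 10 and 8 UMIs), tested only through the sham libraries. Its own fall is not read as a result, and the share that contains it is not compared with that of all genes. Per tube, 10 of the 19 passed in either direction, where 66.6% of all genes passed, 62.0% higher and 4.58% lower. Egr1, an immediate early zinc finger gene, gave 411 and 433 UMIs in sham, 234 and 250 after overload, a log2FC of -1.75 (SE 0.16, edgeR adjusted p = 5.4e-07). Tfpi2, a protease inhibitor gene, fell by -2.03 (adjusted p = 4.3e-05). Against this direction, the D-type cyclin gene Ccnd1 rose by 0.67 (edgeR adjusted p = 0.014), although not by DESeq2 (adjusted p = 0.10, just above the threshold) or without sham replicate 2 (0.52, adjusted p = 0.17). Hmga2, a chromatin protein gene tested only through the overloaded libraries, had no UMI in sham and 52 and 58 after overload, at least 18.8-fold higher when sham is set to a group floor of 3 counts.

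**Figure D4:**
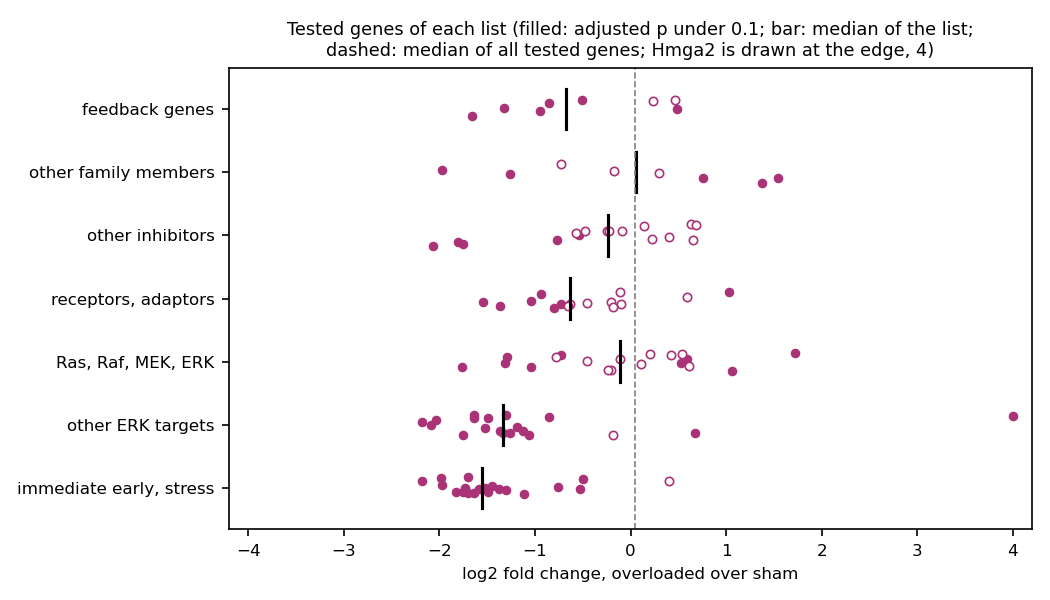
Log2 fold change of overloaded over sham MuSCs for each tested gene of the 7 gene lists (points, filled where past the threshold, with vertical scatter for clarity only), the median of each list (bars) and of all tested genes (dashed). Immediate early genes and other ERK targets lie mostly near their medians of -1.56 and -1.34, while the feedback genes spread from -1.66 to 0.49.

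Of these targets, 5 also belong to a list of 20 immediate early and stress genes that are known to rise while muscle is digested into cells. All 20 were tested, and 19 fell and 0 rose (26.3% and 25.8% of all genes), with a median log2FC of -1.56. Among them Fosb fell by -2.18 (293 and 314 UMIs in sham, 106 and 157 after overload), Jund by -1.99 and Atf3 by -1.98 (adjusted p = 1.2e-07, 3.0e-07 and 6.6e-07 from edgeR). In sum the list held 5233 and 5151 UMIs in sham and 3429 and 4152 after overload. They fell in the same comparison as Dusp1 and Spry4, and their part in the fall of the feedback genes was not tested. Among targets outside that list, 11 of 14 tested genes fell. These include Lif, tested only through the sham libraries, and other immediate early genes, Egr2, Egr3, Fosl1 and Myc.

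For the gene with the largest rise and the gene with the largest fall past the threshold, the closest patterns over the 4 libraries were sought among 1930 tested genes with a mean of at least 50 counts, by Euclidean distance between centred log2 CPM values. Closest to Dusp6 were Wasf2 (distance 0.023), Tomm40 (0.055) and Gadd45g (0.058). Closest to Spry4 were Tsc22d2 (0.14), Cxcl1 (0.15) and Prkab2 (0.16), of which the chemokine gene Cxcl1 gave 474 and 369 UMIs in sham, 241 and 223 after overload. With 4 libraries in 2 groups, such distances say little beyond a fold change of the same size.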

How the data were processed

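RNA-seq by CEL-Seq2 was analysed for 4 libraries of 100 cells each. According to the study's methods and the submitters' processing notes, barcodes were extracted with UMI-tools (1.0.0), reads aligned to GRCm38 with HISAT2 (2.1.0), assigned with featureCounts (1.6.4) and UMIs collapsed by the directional method. The authors deposited the resulting UMI counts, not normalized. The annotation release and strand setting are not given in the sources used here. All 19353 identifiers matched GENCODE M21 (GRCm38).

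Genes were kept by filterByExpr (minimum count 10, minimum total 15), which needs 30.4 CPM of the library total, before TMM, in any 2 libraries. Thus 1843 of the 7228 genes qualified only through the overloaded and 442 only through the sham libraries. TMM factors (0.909, 0.908, 1.08 and 1.12) were applied to the totals of kept genes. Tests used edgeR (4.0.16, R 4.3.3) glmQLFit and glmQLFTest over 7228 genes, with no block, Benjamini-Hochberg adjustment and a threshold of 0.1. Standard errors were derived from the F statistic, and the prior count was 0.125. The common biological coefficient of variation was 9.50%. Libraries of a group differed by more than sampling noise (chi-square per degree of freedom 1.31 and 1.50). An exact permutation test of 2 against 2 libraries cannot go below p = 0.333. The fit was tested on simulated data with known changes, where the share of false calls was above the nominal threshold and smaller changes were often missed. Far fewer genes were changed there than were called here, and no slope with abundance was simulated. Its rates therefore do not carry over to these data, and they cannot decide calls near the threshold such as Dusp6. A count of 3 equals 6.20 to 11.5 CPM.

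Alternatives used DESeq2 (1.42.0) and limma (3.58.1). Tables and plots used Python 3.11.15, pandas 2.3.3, scipy 1.17.1 and matplotlib 3.10.9. The genes and lists were chosen with earlier results of these data known. Genes named beside the 10 were, in each list, up to 3 risen and 3 fallen genes past the threshold with the largest change and a mean of at least 20 counts, with Ccnd1, Pax7, Myod1 and Mki67 as reference and the most abundant gene of each marker list. Dusp10, Dusp22, Etv1, Rasa2, Nf1, Rasa1, Calcr, Chrdl2, Ly6a, Col1a2, Myh4, Rgs5, Notch3, Tagln, Elk3, Rps6ka5, Lif, Egr2, Egr3, Fosl1 and Myc were named, beside defining markers, after their values were seen. No set test was run.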

Additional observations from a re-analysis of the deposited data

How the results depend on the processing

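For the 8 tested genes, 122 values under alternatives kept direction and side of the threshold, 14 lost the call, 3 gained it and 5 changed sign. The sign changed for Spry1 per tube (0.45) and under the offsets for abundance (0.027), for Spry2 (0.089) and Spred1 (0.0058) per tube and for Etv5 without sham replicate 1 (-0.033, the range with 1 library left out being -0.033 to 0.47). Igf1r (0.022) and Pax7 (0.12) also changed sign per tube. Library sizes alone and UMIs per tube shifted the median log2 fold change of all genes by 0.28 and 0.96. Relative to the median of all genes per tube (1.01), Spry1, Spry2 and Spred1 stood at -0.56, -0.92 and -1.01, and Dusp6 at 0.44. The cause of these differences was not tested.

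Over all genes, DESeq2 called 2182, 967 higher and 1215 lower, against 1868 higher and 1898 lower by edgeR, and per tube 4481 were higher and 331 lower. The share of higher genes among those called was 49.6% with TMM, 66.6% with library sizes alone and 93.1% per tube. With 1 library left out, 2849 to 3388 genes passed, 1360 to 1668 higher and 1489 to 1720 lower. Of the feedback genes, 3 passed per tube (3 higher and 0 lower) and 3 under the offsets (2 lower). The number higher was 2 with library sizes alone and with no filter, which let Etv4 in, and 0 with DESeq2, with at least 10 counts in every library of a group, at an adjusted p of 0.05 and with thinned counts. With 1 library left out, 4 to 6 feedback genes passed, 0 to 1 higher and 4 to 5 lower, and their median log2 fold change ranged from -0.88 to -0.49. This median was -0.40 with library sizes alone, 0.27 per tube and -0.047 under the offsets. Of other family members, 2 passed by DESeq2 and 3 to 5 with 1 library left out. Of the other genes listed as inhibitors 11 passed per tube and 3 by DESeq2, and of ERK targets 10 passed per tube.

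Titles give both groups replicate numbers 1 and 2, but the sources used here do not say that equal numbers share a mouse, although opposite legs were compared in other experiments of the study, and deviations of equal numbers from their group means were not correlated (r = -0.034 across genes, which are not independent replicates). With the replicate number as a block, 3670 genes passed, and 6 feedback genes, 5 lower and 1 higher, with 6 rather than 5 other family members and 8 rather than 9 cascade genes. A crossed block, added after seeing the data, gave 3744 and 6. Depth limited Dusp4, Etv4 and Etv5 most, at 0 to 28 UMIs per library.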
